A study of Mus musculus with 12 samples.

Results

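Gfap, Apoe, Clu, S100b, Aldoc, Slc1a3, Fabp7, Nes, Vim and Cd44, 10 genes commonly used as markers of radial glia and astrocytes, were followed through mouse neural stem cells that carried a control or a JMJD3 short hairpin RNA and received TGFb or vehicle. They were taken by name: a probe belonged to the set when the scanner files gave it one of these symbols and did not mark it as a control. This found 15 of the 39429 distinct gene probes on the array. A probe was kept when the scanner software called it well above background on the 3 arrays of any group, which left 13 of the 15 and all 10 genes among the 24146 genes tested. A gene with several kept probes was represented by the brightest.

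The cells came from the cerebral cortex of E12.5 mouse embryos and were stably transfected. The JMJD3 knockdown cells carry a short hairpin RNA named sh2 JMJD3 in the labels, against the histone H3 lysine 27 demethylase whose gene symbol is Kdm6b. The control cells carry a random short hairpin RNA, so that no group is free of a hairpin. There were 4 groups of 3 arrays: knockdown cells with TGFb, knockdown cells with vehicle, control cells with TGFb and control cells with vehicle. TGFb was given at 5 ng/ml for 2.5 h, and for the vehicle groups the treatment label reads "none" where the design text names the vehicle. The labels state 3 replicates for each group without saying that these were separate cultures. The p-values set differences between groups against the spread of these samples within groups, and that spread may be technical. Whether each line was a clone or a pool is not stated in the labels. The groups hold a single JMJD3 hairpin, so loss of JMJD3 cannot be told apart from another difference between the lines. Below, wording such as the knockdown raised or lowered a gene names the comparison of the lines and not a cause.

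Total RNA was labelled with Cy3 and each sample was hybridised to an Agilent array of 1 colour. Levels below are log2 of the background-corrected signal minus log2 of the 75th percentile of the same array, so that 0 stands for the signal at that percentile. Levels of different probes are not comparable, and changes are differences of log2 levels with their standard error (SE). A call is an adjusted p under 0.05 from limma over all 24146 genes. Between 70.2% and 78.4% of probes were well above background per array and no gene spot was saturated. The lowest detection was on knockdown vehicle replicate 3, the other arrays being at 74.9% or more. Kdm6b, the targeted gene, fell by 1.40 ± 0.05 (SE) in knockdown cells with TGFb and by 1.16 ± 0.05 with vehicle (limma, adjusted p = 2.85e-08 and 1.06e-07). The 12 arrays lay on 4 slides, and arrays of different groups on the same slide deviated together in 12 of 12 pairs (median correlation across genes 0.356), so changes are also given within slides.

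Radial glia are the neural stem cells of the embryonic cortex. They hold the intermediate filament proteins nestin and vimentin, take up glutamate and carry fatty acids with brain lipid binding protein, and later in development they give rise to astrocytes. Astrocytes are known by the filament protein GFAP, by the calcium-binding protein S100B and by the lipid carriers ApoE and clusterin, and CD44, a receptor for the matrix sugar hyaluronan, marks astrocyte precursors and some mature astrocytes. All 10 genes were well above background on all 12 arrays, as were all 16 genes of a further list of radial glia genes. In a bulk sample, fewer cells of a type and less RNA per cell cannot be told apart.

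TGFb was followed by higher levels of a few of these genes and by lower levels of none that passed. In knockdown cells, Gfap and Clu rose, beside 9.49% of all genes (1144 higher and 1147 lower). In control cells, Gfap, Clu and Cd44 rose, beside 10.1% of all genes (1310 higher and 1140 lower). The median change of the 10 genes with TGFb was 0.13 in knockdown and -0.01 in control cells, beside -0.02 and -0.01 over all genes tested. With 10 genes, counts of 2 and 3 rest on single genes.

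The knockdown moved more of the set than TGFb did, and in both directions. With TGFb, Gfap, Apoe and Slc1a3 were higher in knockdown than in control cells and Clu and Nes were lower. That is 5 of 10 genes, beside 29% of all genes (2902 higher and 4096 lower). With vehicle, Gfap, Apoe and Slc1a3 were again higher, and Clu, Aldoc, Nes and Vim were lower, which is 7 of 10 genes beside 27.8% of all genes (3020 higher and 3701 lower). The calls of Aldoc and Vim lay near the threshold (limma, adjusted p = 0.0486 and 0.0462) and held under 8 and 9 of 25 alternative settings. The median change of the set was -0.04 with TGFb and -0.06 with vehicle, beside -0.01 and -0.02 over all genes. S100b and Fabp7 passed in no comparison. The comparisons share groups of arrays, so that each pair of changes for a gene is not independent. The shares of all genes given here and for TGFb above also stand beside the counts of the further gene lists below. The 10 genes and the lists were chosen with earlier results of these data known, so their counts cannot show an excess over those shares.

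**Figure D1:**
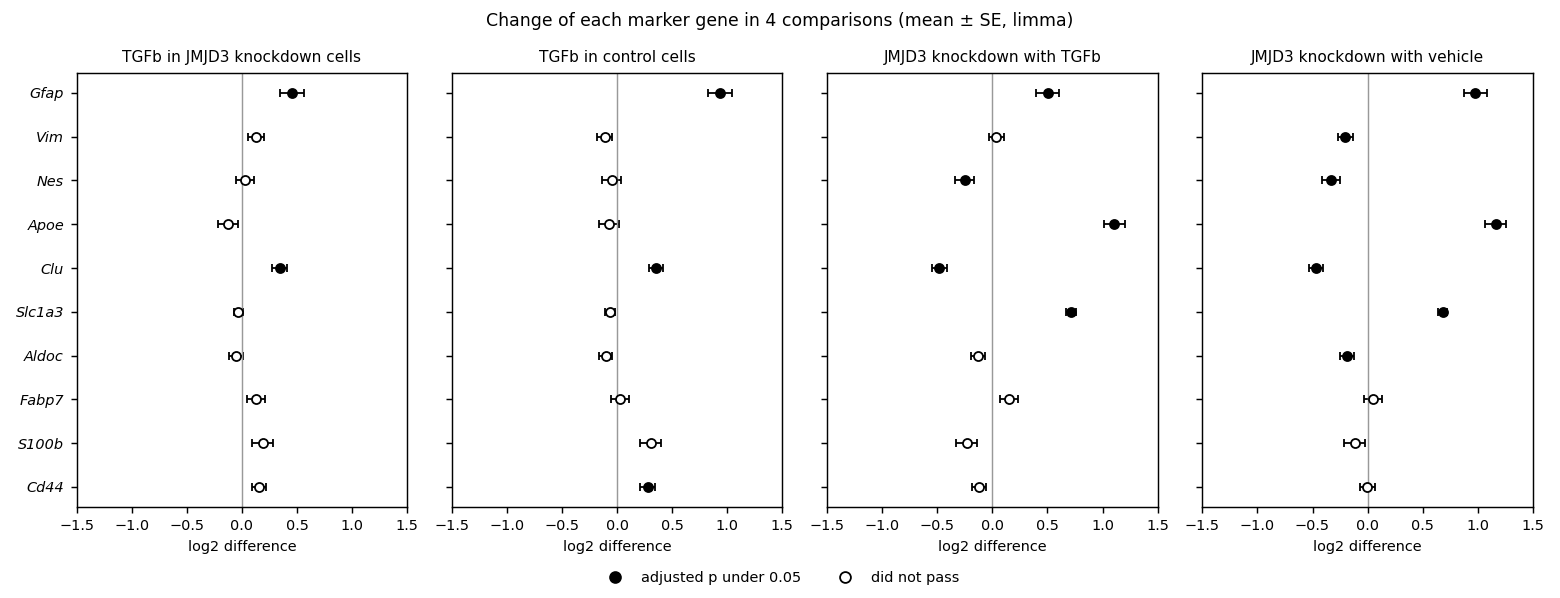
Change of each of the 10 genes in 4 comparisons: the x axis is the log2 difference (the group named in the panel title minus its counterpart) with its SE, and filled points passed an adjusted p of 0.05 in limma, n = 3 arrays a group. Gfap lies right of 0 in every panel, Clu right of 0 with TGFb and left of 0 in the knockdown, and Apoe and Slc1a3 are filled in both knockdown panels and open in both TGFb panels.

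Gfap, which encodes the filament protein of astrocytes, was higher in all 4 comparisons between groups, and of the other 9 genes only Clu also passed in all 4. Its 3 probes lie on the minus strand of chromosome 11, and the files list one RefSeq transcript for the first pair and another for the third. The first 30 bases of each are shown because the probes are listed for different transcripts, 5′ to 3′ as deposited, with positions of the whole probe in build mm9. The files do not say in which exon or untranslated part a probe lies.
Gfap probe 1, chr11:102751813-102751872: ggttatattaacagagctagcctatgctaa
Gfap probe 2, chr11:102752726-102752785: caaaaggctcacaatacaagttgtcccaat
Gfap probe 3, chr11:102748864-102748923: tttgaggaactgaaacgtgttgtgttcaag

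Gfap probe 1, the brightest, read -3.77, -3.69 and -3.69 in knockdown cells with TGFb and -4.22, -4.07 and -4.22 in knockdown cells with vehicle. It read -4.32, -4.28 and -4.06 in control cells with TGFb and -5.20, -4.97 and -5.28 in control cells with vehicle. The knockdown arrays with TGFb were the highest and the control arrays with vehicle the lowest, with no overlap with any other group. The middle groups, knockdown with vehicle and control with TGFb, overlapped. TGFb raised Gfap by 0.46 ± 0.11 (SE) in knockdown cells, a 1.37-fold change (limma, adjusted p = 0.018), and by 0.93 ± 0.11 in control cells (1.91-fold, adjusted p = 9.55e-05). The knockdown raised it by 0.50 ± 0.11 with TGFb (1.42-fold, adjusted p = 0.00404) and by 0.98 ± 0.11 with vehicle (1.97-fold, adjusted p = 4.42e-05).

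The rise of Gfap with TGFb in knockdown cells held under 18 of 25 alternative settings and the other 3 calls under all 25. The sizes were less stable. The TGFb change in control cells was 0.59 under normexp background correction and 0.57 under the authors' processed values, against 0.93, and the knockdown change with vehicle was 0.57 and 0.60, against 0.98. With slide as a fixed block the rise with TGFb in knockdown cells was 0.36 ± 0.12 (SE) and did not pass (limma, adjusted p = 0.112). Without knockdown vehicle replicate 1 or 3, or without knockdown TGFb replicate 2 or 3, it was between 0.43 and 0.44 (adjusted p 0.0663 to 0.0744). Slide 3 is the only slide that holds both knockdown groups, and the difference on it was 0.45. In control cells the rise was 0.65 and 1.01 on the slides that hold both groups, and the knockdown difference was 0.37 to 0.50 within slides with TGFb and 0.90 to 1.06 with vehicle.

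The other Gfap probes changed in the same direction in all 4 comparisons, and fewer of their changes passed when every kept probe was tested on its own. Probe 2, listed for the same transcript, was dim: it was well above background on 3 of 3 knockdown arrays with TGFb, 2 of 3 with vehicle, 3 of 3 control arrays with TGFb and 1 of 3 with vehicle. Probe 2 thus passed the filter only through the groups with TGFb, so its TGFb changes are no separate support for those of probe 1. It rose with TGFb in control cells by 0.75 ± 0.21 (SE; limma over probes, adjusted p = 0.0413) and with the knockdown under vehicle by 0.61 ± 0.21 (adjusted p = 0.0468). Neither vehicle group alone would have kept the probe, so these sizes rest partly on dim spots. Probe 3, listed for the other transcript, read -5.58, -6.22 and -5.96 in control cells with TGFb, against -6.16, -6.14 and -6.59 in control cells with vehicle, and these groups overlapped. Its TGFb change in control cells was 0.38 ± 0.19 (adjusted p = 0.315). Probe 3 rose with the knockdown under vehicle by 0.55 ± 0.19 (adjusted p = 0.0459), with no overlap of the arrays. Whether the probes differ in their change was not tested.

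**Figure D2:**
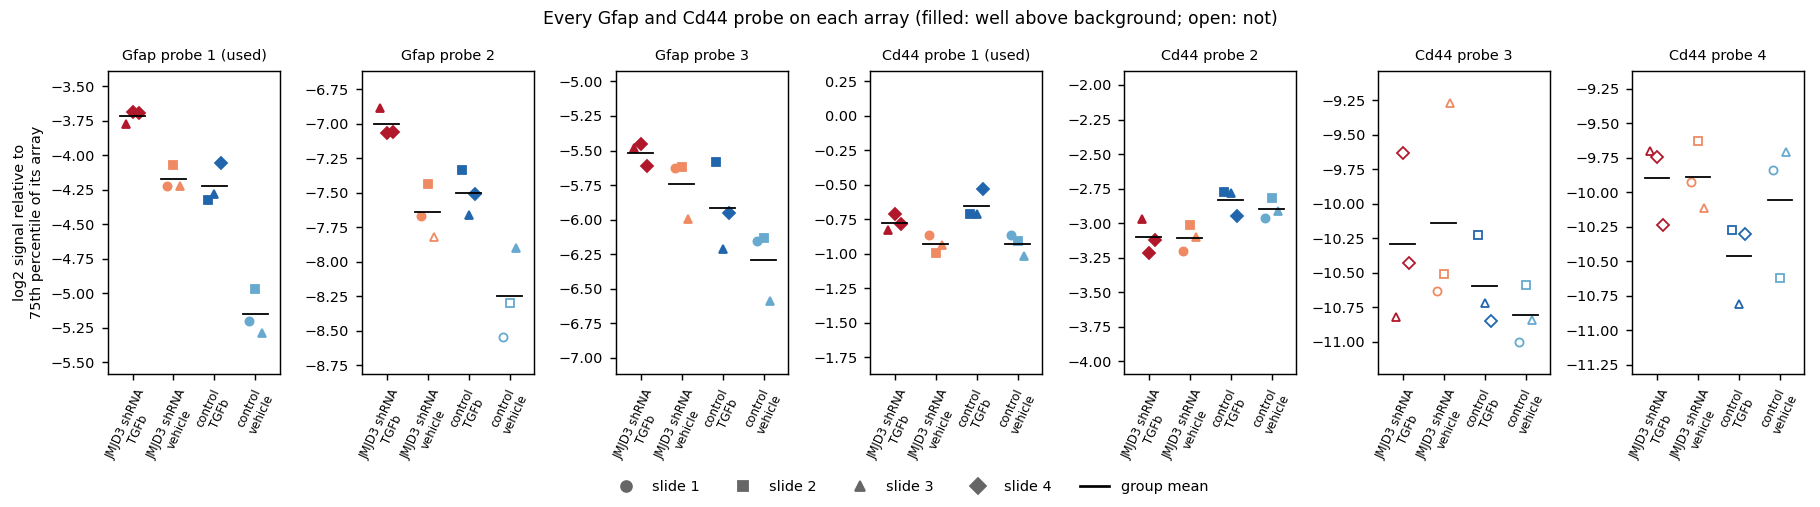
Every Gfap and Cd44 probe on each array: the y axis is the log2 signal relative to the 75th percentile of the array, symbols mark the slide, bars the mean of 3 arrays, and open symbols arrays on which the probe was not well above background. Gfap probes 1 and 2 are lowest in control cells with vehicle, and Cd44 probes 3 and 4 are open on all 12 arrays.

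RefSeq's promoter table (GRCm38.p6) held 9 of the 10 genes. Clu was not among them. The 250 bases before the start of Gfap are shown because this gene changed in all 4 comparisons, and those of Slc1a3 because it had the smallest standard error among the changes with the knockdown. Capitals mark matches to motifs searched on both strands: CAGAC (the SMAD box), TTCNNNGAA (a STAT site), TGANTCA (an AP-1 site) and TGGGAA (the RBPJ core). None of the matches shown overlaps another.
Gfap, minus strand, chr11:102897201-102897450: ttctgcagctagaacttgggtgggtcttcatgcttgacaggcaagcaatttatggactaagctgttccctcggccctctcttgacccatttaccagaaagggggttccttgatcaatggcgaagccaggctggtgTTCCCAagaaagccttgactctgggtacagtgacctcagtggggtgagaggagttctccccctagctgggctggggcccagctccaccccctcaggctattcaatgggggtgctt
Slc1a3, minus strand, chr15:8710808-8711057: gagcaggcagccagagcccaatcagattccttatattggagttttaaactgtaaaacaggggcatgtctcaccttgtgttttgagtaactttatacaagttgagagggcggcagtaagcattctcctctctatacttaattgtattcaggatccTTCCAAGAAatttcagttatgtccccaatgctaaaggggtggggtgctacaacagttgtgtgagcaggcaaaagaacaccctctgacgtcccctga
The Gfap window held 1 match, to the RBPJ core on the opposite strand, starting 115 bases before the start. The Slc1a3 window held 1 match to the STAT site, starting 96 bases before the start. Over the 32851 promoters of the table, 42.2% held the SMAD box, 7.02% the STAT site, 6.75% the AP-1 site and 21.6% the RBPJ core. Of the 12 start sites of the set, 3 held the SMAD box, 2 the STAT site, none the AP-1 site and 6 the RBPJ core. These are matches of letters and not measured sites.

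Vim and Nes encode the filaments of radial glia, vimentin and nestin. Nes read 5.15, 5.04 and 4.92 in knockdown cells with TGFb, against 5.41, 5.34 and 5.10 in control cells with TGFb. It read 4.92, 5.02 and 5.08 in knockdown cells with vehicle, against 5.27, 5.35 and 5.39 in control cells with vehicle. With vehicle all knockdown arrays were below all control arrays. Nes fell by 0.25 ± 0.08 (SE) with TGFb, where the groups overlapped (limma, adjusted p = 0.0415), and by 0.33 ± 0.08 with vehicle (adjusted p = 0.0113). The fall with TGFb lost its call when any of 8 of the 12 arrays was left out (adjusted p 0.0507 to 0.16). It stayed past the threshold without control vehicle replicate 1, control TGFb replicate 3, knockdown vehicle replicate 1 or knockdown TGFb replicate 1. It held under 10 of 25 settings and was lost, among others, under quantile normalization (-0.17, adjusted p = 0.149) and the authors' processed values (-0.14, adjusted p = 0.102). The fall with vehicle held under 22 of 25 and was lost under quantile normalization (-0.22, adjusted p = 0.0658) and median scaling (adjusted p = 0.0824). Within slides Nes was lower in the knockdown on both slides with TGFb (-0.20 and -0.13) and on all 3 slides with vehicle (-0.35 to -0.31).

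Vim read 6.27, 6.03 and 6.12 in knockdown cells with vehicle, against 6.43, 6.26 and 6.34 in control cells with vehicle. The groups overlapped by 1 array. Vim fell by 0.20 ± 0.07 (SE) (limma, adjusted p = 0.0462), a call lost without any of 8 of the 12 arrays (adjusted p 0.0524 to 0.168) and kept without control vehicle replicate 2, knockdown vehicle replicate 1 or knockdown TGFb replicate 1 or 2. Under the authors' processed values the change was -0.01 and under quantile normalization -0.04. With TGFb the knockdown change of Vim was 0.04 ± 0.07 (adjusted p = 0.742). Neither gene passed for TGFb in either line, with changes from -0.11 to 0.13.

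Of 7 other cytoplasmic filament genes, 6 were measured. With TGFb, 2 rose in each line and none fell, and with the knockdown 3 rose under each treatment and none fell. Synm, whose product synemin assembles with vimentin and desmin, averaged -0.95 in knockdown cells with TGFb, -1.42 in knockdown cells with vehicle, -1.65 in control cells with TGFb and -2.48 in control cells with vehicle. Synm rose with TGFb by 0.47 ± 0.09 (SE) in knockdown and 0.83 ± 0.09 in control cells (limma, adjusted p = 0.00771 and 0.000103). It rose with the knockdown by 0.70 ± 0.09 with TGFb and 1.06 ± 0.09 with vehicle (adjusted p = 0.000213 and 1.07e-05). Nefh, a neurofilament subunit, rose with TGFb by 2.86 ± 0.18 in knockdown and 2.11 ± 0.18 in control cells (adjusted p = 1.05e-06 and 1.16e-05). The Nefh probe was well above background on 2 of 3 knockdown arrays with vehicle and on all 3 arrays of each other group. The desmin gene Des did not exceed background well on any of the 12 arrays.

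Apoe and Clu encode lipid carriers that astrocytes secrete, and they moved in opposite directions in the knockdown. Apoe was read by a probe printed on 10 spots at chr7:20281732-20281791 (mm9, minus strand), shown because it carries the largest knockdown change of the set.
Apoe probe: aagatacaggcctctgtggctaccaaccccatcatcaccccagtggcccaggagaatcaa
Apoe read 1.23, 0.95 and 1.03 in knockdown cells with TGFb, against 0.08, 0.04 and -0.23 in control cells with TGFb. It read 1.13, 1.26 and 1.20 in knockdown cells with vehicle, against -0.06, 0.12 and 0.05 in control cells with vehicle. All knockdown arrays lay above all control arrays. Apoe rose with the knockdown by 1.11 ± 0.09 (SE) with TGFb (2.16-fold, limma, adjusted p = 6.35e-06) and by 1.16 ± 0.09 with vehicle (2.24-fold, adjusted p = 4.06e-06). The changes with TGFb were -0.13 ± 0.09 in knockdown and -0.08 ± 0.09 in control cells (adjusted p = 0.482 and 0.803), and the arrays overlapped.

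Clu, for clusterin, read 1.49, 1.34 and 1.56 in knockdown cells with TGFb and 1.09, 1.17 and 1.11 in knockdown cells with vehicle. It read 2.04, 1.96 and 1.84 in control cells with TGFb and 1.52, 1.62 and 1.62 in control cells with vehicle. The highest group was control with TGFb and the lowest knockdown with vehicle, and the groups of each comparison did not overlap. TGFb raised Clu by 0.34 ± 0.07 (SE) in knockdown and 0.35 ± 0.07 in control cells (limma, adjusted p = 0.00549 and 0.00399). In the knockdown, Clu fell by 0.48 ± 0.07 with TGFb and by 0.47 ± 0.07 with vehicle (adjusted p = 0.00023 and 0.000279). The rise in knockdown cells missed the threshold when arrays were scaled to their median (adjusted p = 0.114), and the other Clu calls held under all 25 settings.

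Of 12 other genes of lipoprotein handling, 5 rose and none fell with TGFb in knockdown cells, and 4 rose and none fell in control cells. With the knockdown, 3 rose and 4 fell with TGFb, and 4 rose and 4 fell with vehicle. Abca1, which loads cholesterol onto ApoE, rose with TGFb by 0.80 ± 0.06 (SE) in knockdown and 1.25 ± 0.06 in control cells (limma, adjusted p = 3.78e-06 and 7.08e-08). Lcat, which esterifies the cholesterol of such particles, rose with the knockdown by 0.83 ± 0.12 with TGFb and 1.12 ± 0.12 with vehicle (adjusted p = 0.000354 and 4.57e-05). Lrp8, a receptor for ApoE and reelin, rose with TGFb by 0.66 ± 0.05 in knockdown and 0.50 ± 0.05 in control cells (adjusted p = 4.65e-06 and 4.16e-05). It fell by 0.50 ± 0.05 in the knockdown with TGFb and by 0.66 ± 0.05 with vehicle (adjusted p = 2.87e-05 and 3.39e-06). Abcg1, another cholesterol exporter, was not well above background on any knockdown array with vehicle, where its mean was -10.09 against -7.71 in control cells with vehicle. Its fitted change was -2.38 ± 0.26 (SE; limma, adjusted p = 4.55e-05), a size that rests on those dim spots. As a bound, Abcg1 was at least 1.5-fold lower there. Abcg1 is also among the 5 rises with TGFb in knockdown cells, by a fitted 2.57 ± 0.26 (SE; limma, adjusted p = 4.09e-05). That rise starts from the same dim spots, and as a bound it was at least 1.72-fold. Neither bound was itself tested. The bound sets each dim array to the smallest detected signal on it, unless the Abcg1 signal itself is higher.

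Slc1a3 encodes the glutamate transporter of radial glia and astrocytes and Aldoc the brain form of the glycolytic enzyme aldolase. Slc1a3 read 5.17, 5.08 and 5.01 in knockdown cells with TGFb, against 4.38, 4.39 and 4.36 in control cells with TGFb. With vehicle it read 5.14, 5.08 and 5.15 in knockdown cells, against 4.46, 4.43 and 4.44 in control cells. The lines did not overlap under either treatment. Slc1a3 rose with the knockdown by 0.71 ± 0.04 (SE) with TGFb (1.64-fold, limma, adjusted p = 7.76e-07) and by 0.68 ± 0.04 with vehicle (1.60-fold, adjusted p = 9.73e-07). The changes with TGFb were -0.03 ± 0.04 in knockdown and -0.06 ± 0.04 in control cells (adjusted p = 0.743 and 0.55).

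Aldoc read 5.77, 5.67 and 5.72 in knockdown cells with vehicle, against 5.99, 5.93 and 5.78 in control cells with vehicle. The lowest control array lay just above the highest knockdown array. The knockdown change of Aldoc with TGFb was -0.13 ± 0.06 (SE; limma, adjusted p = 0.15), and with vehicle Aldoc fell by 0.18 ± 0.06 (adjusted p = 0.0486). The call was lost without any of 9 of the 12 arrays (adjusted p 0.0514 to 0.176), and was kept without control vehicle replicate 3, control TGFb replicate 3 or knockdown TGFb replicate 1. Under quantile normalization it was -0.05 and under the authors' processed values -0.08.

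A list of 6 genes of glutamate transport and glutamine synthesis, without Slc1a3, was measured. Slc1a1, a glutamate transporter known mainly from neurons, rose with the knockdown by 0.52 ± 0.07 (SE) with TGFb and 0.50 ± 0.07 with vehicle (limma, adjusted p = 0.000143 and 0.000173). It fell by 0.44 ± 0.07 with TGFb in knockdown cells and by 0.46 ± 0.07 in control cells (adjusted p = 0.000912 and 0.000648). Glul, the glutamine synthetase of astrocytes, fell in the knockdown by 0.20 ± 0.05 with TGFb and 0.19 ± 0.05 with vehicle (adjusted p = 0.0166 and 0.0199). Over the list, the knockdown raised 2 and lowered 1 with TGFb, and raised 1 and lowered 1 with vehicle.

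Fabp7, the brain lipid binding protein of radial glia, and S100b passed in no comparison. Fabp7 ranged from 6.77 to 6.93 in knockdown cells with TGFb, 6.59 to 6.83 in knockdown cells with vehicle, 6.58 to 6.80 in control cells with TGFb and 6.64 to 6.79 in control cells with vehicle. The groups of all 4 comparisons overlapped, and the changes ran from 0.02 to 0.15 (limma, adjusted p 0.202 to 0.961). Under quantile normalization Fabp7 passed in the knockdown, at 0.20 with TGFb and 0.19 with vehicle (limma, adjusted p = 0.00978 and 0.0155), and under the authors' processed values at 0.16 and 0.17 (adjusted p = 0.0336 and 0.0297).

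S100b read 1.67, 1.28 and 1.37 in knockdown cells with TGFb, against 1.25, 1.35 and 1.16 in knockdown cells with vehicle. These groups overlapped, and TGFb replicate 1 stood above the other knockdown arrays. In control cells it read 1.71, 1.68 and 1.63 with TGFb, against 1.49, 1.37 and 1.25 with vehicle. The control groups did not overlap, but the change of 0.30 ± 0.09 (SE) missed the threshold (limma, adjusted p = 0.0705), as did that of 0.19 ± 0.09 in knockdown cells (adjusted p = 0.308). Slide as a fixed block brought both TGFb changes past the threshold, at 0.38 ± 0.09 in knockdown and 0.41 ± 0.08 in control cells (adjusted p = 0.0316 and 0.00645). With slide as a random block the change in knockdown cells did not pass (0.28, adjusted p = 0.0815) and that in control cells did (0.35, adjusted p = 0.0128). On the slides that hold both groups S100b was higher with TGFb by 0.51 in knockdown cells and by 0.34 and 0.43 in control cells. Without knockdown TGFb replicate 1, its TGFb change in control cells, 0.30, passed (adjusted p = 0.0141), and so did a fall of 0.35 with the knockdown under TGFb (adjusted p = 0.00592, against -0.23 and 0.0907 with all arrays).

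**Figure D3:**
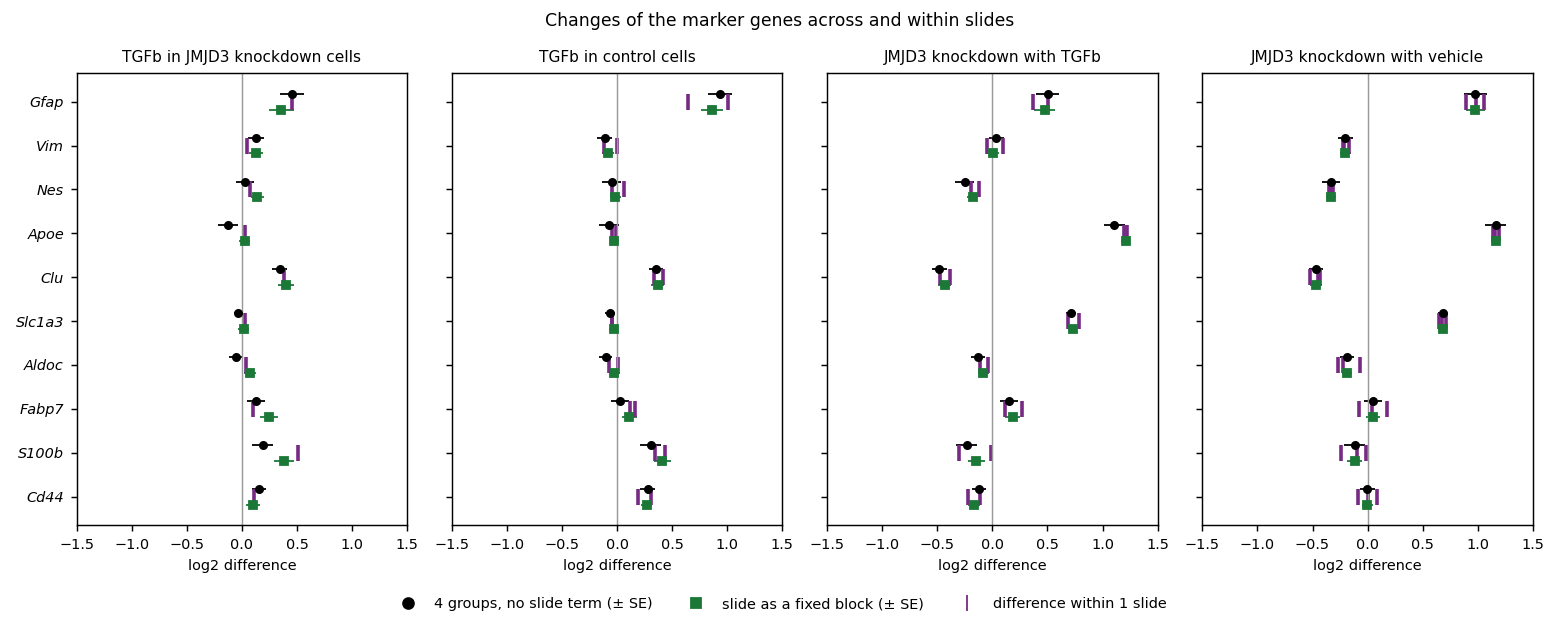
Changes of the 10 genes in 4 comparisons without a slide term (circles, ± SE), with slide as a fixed block (squares, ± SE) and within each slide that holds both groups (bars), as log2 differences on the x axis. The S100b changes with TGFb are 0.38 in knockdown and 0.41 in control cells under the block, against 0.19 and 0.30 without it, and the Apoe and Slc1a3 differences of the knockdown are 0.65 or more on every slide.

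Cd44 was the third gene to rise with TGFb in control cells. Its 4 probes lie on the minus strand of chromosome 2 (mm9) and are shown because they separate transcripts: the files list 3 RefSeq transcripts for probes 1 and 2, and only 2 of those 3 for probes 3 and 4. CD44 is known for variant exons that are spliced in or left out. For probe 1 the first 30 bases are given and for probe 2 the first 48.
Cd44 probe 1, chr2:102651398-102651457: tcagaggcagctggcatcctttgttttgtt
Cd44 probe 2, chr2:102654278-102654337: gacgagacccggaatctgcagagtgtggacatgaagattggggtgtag
Cd44 probe 3, chr2:102672645-102672704: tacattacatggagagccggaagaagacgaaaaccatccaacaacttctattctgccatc
Cd44 probe 4, chr2:102677971-102678030: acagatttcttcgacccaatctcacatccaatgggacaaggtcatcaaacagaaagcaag

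Cd44 probes 1 and 2 were well above background on all 12 arrays, and probes 3 and 4 on none. Probe 1 read -0.83, -0.71 and -0.79 in knockdown cells with TGFb, against -0.86, -0.99 and -0.94 in knockdown cells with vehicle, with no overlap. In control cells it read -0.72, -0.71 and -0.53 with TGFb, against -0.87, -0.91 and -1.02 with vehicle, again with no overlap.

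The change of Cd44 with TGFb was 0.16 ± 0.07 (SE) in knockdown cells (limma, adjusted p = 0.215), and in control cells Cd44 rose by 0.28 ± 0.07 (adjusted p = 0.0195). The call in control cells was lost without control vehicle replicate 3 (0.23, adjusted p = 0.0927) and without control TGFb replicate 3 (0.22, adjusted p = 0.0762), and it held under 17 of 25 settings. Probe 2 read -2.78, -2.78 and -2.95 in control cells with TGFb, against -2.96, -2.82 and -2.91 with vehicle, and its change was 0.06 ± 0.08 (adjusted p = 0.836). With the knockdown under TGFb, probe 2 fell by 0.27 ± 0.08 (adjusted p = 0.0331), where the change of probe 1 was -0.12 ± 0.07 (adjusted p = 0.205, and -0.16 with adjusted p = 0.0341 with slide as a fixed block). For the mean of the kept Cd44 probes this change was -0.19 (limma, adjusted p = 0.00716). It passed under 4 of 25 settings, so the call depends on the probe and the slide term used.

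Of 10 other genes of hyaluronan synthesis and binding, 1 rose with TGFb in knockdown cells and 2 in control cells, and none fell. Has2, a hyaluronan synthase, rose by 2.95 ± 0.11 (SE) in knockdown and 3.01 ± 0.11 in control cells (limma, adjusted p = 9.43e-09 and 8.36e-09). Has2 fell in the knockdown by 0.58 ± 0.11 with TGFb and 0.51 ± 0.11 with vehicle (adjusted p = 0.00178 and 0.00387). Spp1, which encodes the CD44 ligand osteopontin, rose with the knockdown by 0.80 ± 0.07 with TGFb and 1.01 ± 0.07 with vehicle (adjusted p = 1.23e-05 and 1.89e-06). The knockdown raised 4 and lowered 2 of the list with TGFb, and raised 5 and lowered 1 with vehicle.

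**Figure D4:**
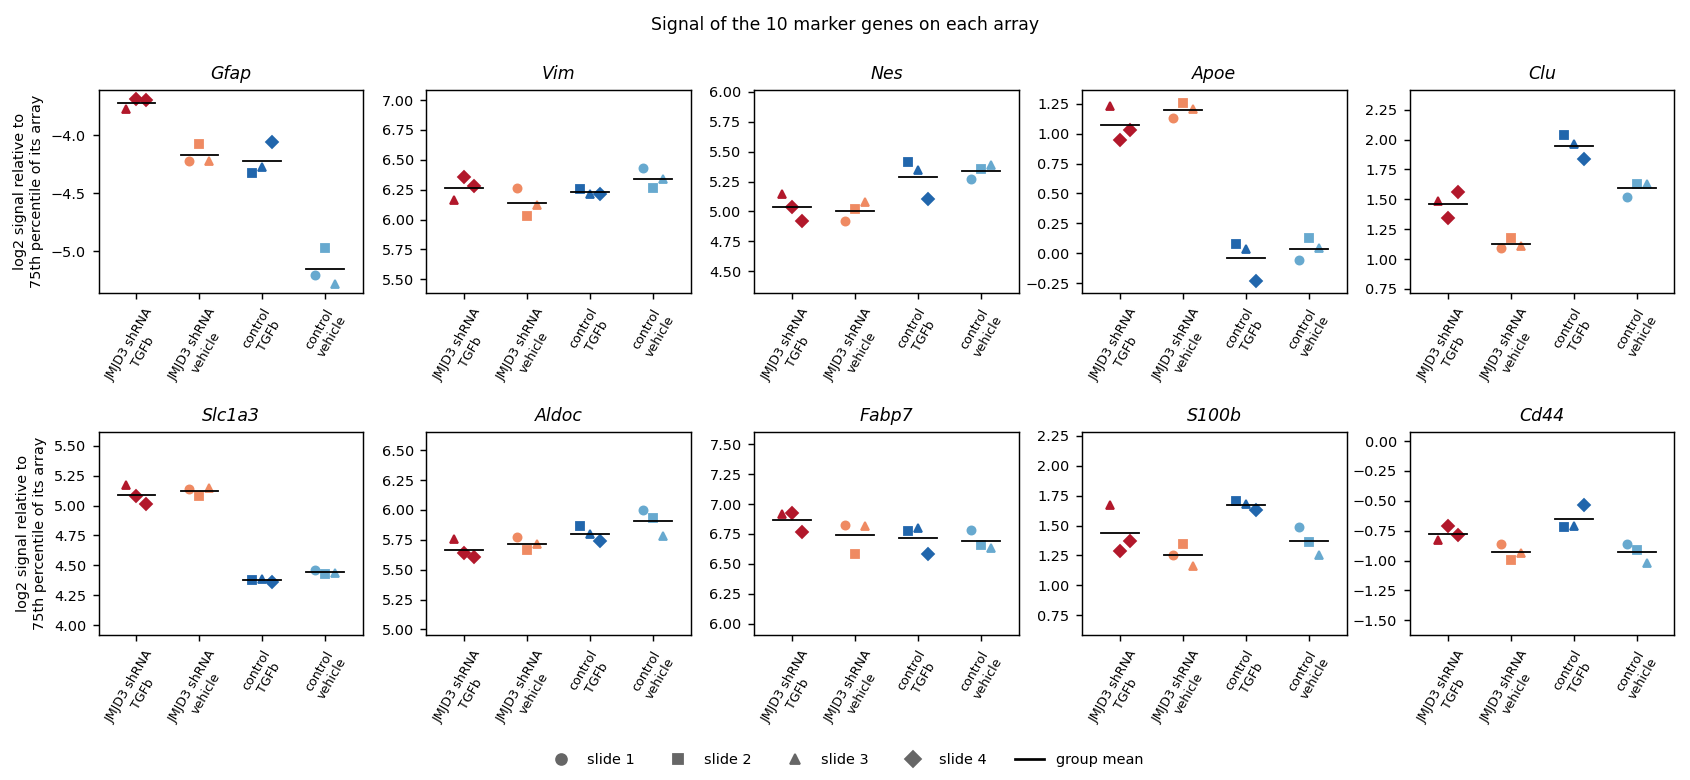
Levels of the 10 genes on each of the 12 arrays: the y axis is the log2 signal relative to the 75th percentile of the array, symbols mark the slide and bars the mean of 3 arrays, and every panel spans at least 1.7 log2 units. Apoe and Slc1a3 separate the knockdown from the control arrays under both treatments, and Gfap is lowest in the 3 control arrays with vehicle, at -4.97 or less.

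The difference between the TGFb responses of the lines, knockdown minus control, passed for 0 of the 10 genes in limma, beside 0.087% of all genes (11 higher and 10 lower). At an unadjusted p under 0.05 it was found for 2 of them, Gfap and Vim, beside 5.11% of all genes. For Gfap the difference was -0.48 ± 0.15 (SE; adjusted p = 0.666). It was -0.56 on slide 3, -0.21 under normexp correction and -0.25 under the authors' processed values. For Vim it was 0.24 ± 0.10 (adjusted p = 0.949). With slide as a fixed block 4 genes had an unadjusted p under 0.05, adding Nes and Cd44, beside 9.29% of all genes in that setting, and none of the 10 passed adjustment. For Clu the difference was -0.01 ± 0.09 and for Apoe -0.05 ± 0.13. The median SE of such a difference over all genes was 0.144, against 0.102 for a comparison of 2 groups.

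Further astrocyte genes were read from a list of 18, of which 17 were measured. Glul, whose falls with the knockdown are given above, is on this list too. The knockdown raised 6 and lowered 2 with TGFb, with a median change of 0.13, and raised 8 and lowered 2 with vehicle, with a median of 0.26. Slc7a10, a transporter of small amino acids in astrocytes, rose by 1.28 ± 0.15 (SE) with TGFb and 1.41 ± 0.15 with vehicle (limma, adjusted p = 9.23e-05 and 4.63e-05). Atp1b2, a subunit of the glial sodium pump, rose by 1.06 ± 0.10 and 1.11 ± 0.10 (adjusted p = 1.74e-05 and 1.16e-05), and Dio2, which activates thyroid hormone, by 0.52 ± 0.11 and 0.70 ± 0.11 (adjusted p = 0.00433 and 0.000668). With TGFb, none of the 17 rose and 1 fell in knockdown cells, Dio2 by 0.42 ± 0.11 (adjusted p = 0.0386). In control cells 2 rose, Ntsr2 by 0.71 ± 0.12 and Gpr37l1 by 0.53 ± 0.13 (adjusted p = 0.00286 and 0.0197).

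Of 16 other radial glia genes, the knockdown raised 4 and lowered 2 with TGFb, and raised 4 and lowered 1 with vehicle. Of all genes, 29% passed for the knockdown with TGFb and 27.8% with vehicle. Hes5, a repressor driven by Notch, rose by 0.64 ± 0.11 (SE) with TGFb and 0.78 ± 0.11 with vehicle (limma, adjusted p = 0.00125 and 0.000318). Sox2, a factor of neural stem cells, rose by 0.56 ± 0.04 and 0.74 ± 0.04 (adjusted p = 2.83e-06 and 3.45e-07). Mfge8 fell in the knockdown by 0.47 ± 0.09 with TGFb and by 0.31 ± 0.09 with vehicle (adjusted p = 0.00199 and 0.0216). Hopx fell by 0.27 ± 0.09 in the knockdown with TGFb (adjusted p = 0.0434). With TGFb, 2 of the 16 rose and 1 fell in each line. Notch1 rose by 1.11 ± 0.08 in knockdown and 0.92 ± 0.08 in control cells (adjusted p = 3.92e-06 and 1.56e-05), and Sox2 fell by 0.33 ± 0.04 and by 0.15 ± 0.04 (adjusted p = 0.000263 and 0.0462).

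**Figure D5:**
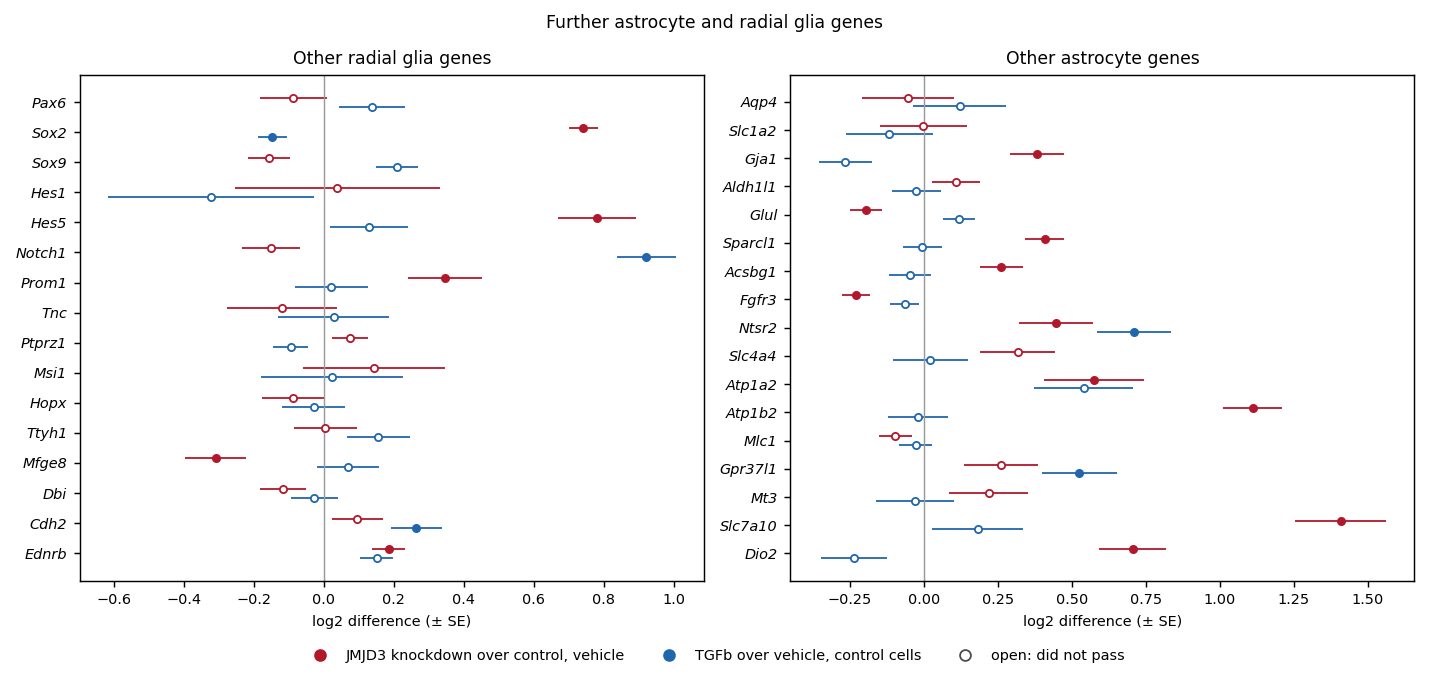
Changes of 16 further radial glia genes (left) and 17 further astrocyte genes (right), as log2 differences ± SE on the x axis, for the knockdown over control with vehicle (red) and for TGFb over vehicle in control cells (blue). Filled points passed an adjusted p of 0.05; Slc7a10 and Atp1b2 lie farthest right for the knockdown and Notch1 for TGFb.

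Regulators of astrocyte differentiation were read from a list of 25 genes. With TGFb, 6 rose and 1 fell in knockdown cells, and 4 rose and 1 fell in control cells. Id1, which blocks neurogenic factors, rose by 1.33 ± 0.08 (SE) in knockdown and 1.51 ± 0.08 in control cells (limma, adjusted p = 3.93e-07 and 1.16e-07). Lif, a cytokine that induces Gfap through STAT3, fell by 1.15 ± 0.12 and by 1.26 ± 0.12 (adjusted p = 5.4e-05 and 2.24e-05). With the knockdown 4 rose and 7 fell under each treatment. With vehicle the largest of these changes were rises of Osmr by 0.69 ± 0.10, Il6st by 0.69 ± 0.07 and Cntfr by 0.59 ± 0.15, which encode cytokine receptors (adjusted p = 0.000271, 1.84e-05 and 0.0136). Zbtb20, a transcription factor, fell by 0.57 ± 0.11 and Lif fell by 0.52 ± 0.12 (adjusted p = 0.00196 and 0.00644).

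A list of 10 genes known to rise in reactive astrocytes gave mixed directions. With TGFb, 2 rose and 2 fell in knockdown cells and 3 rose and 2 fell in control cells. With the knockdown, 3 rose and 4 fell under TGFb and 4 rose and 5 fell under vehicle. The falls with TGFb in knockdown cells include Steap4, whose probe did not exceed background well on any knockdown array. That fall therefore lies between dim spots. Steap4 is also counted among the falls with TGFb in control cells and with the knockdown under vehicle. Both falls start from control cells with vehicle, where its mean was -7.584, against -9.695 in control cells with TGFb and -8.752 in knockdown cells with vehicle. The filter kept the probe through that bright group, so both falls are partly built in by the filter and rest on dim spots. As bounds, which were not tested, they were at least 1.76-fold and 1.63-fold. Hspb1, a small heat shock protein, rose with TGFb by 0.98 ± 0.06 (SE) in knockdown and 1.21 ± 0.06 in control cells (limma, adjusted p = 8.61e-07 and 1.29e-07). Serpina3n, a secreted protease inhibitor, fell in the knockdown by 1.18 ± 0.25 with TGFb and by 1.31 ± 0.25 with vehicle (adjusted p = 0.00448 and 0.00255). Its probe was well above background on 2 of 3 knockdown arrays with TGFb and 1 of 3 with vehicle, and on all 3 arrays of each control group, so that the sizes of these falls rest partly on dim spots.

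Markers of other cell types moved as well, and their part in the changes above was not tested. Of 9 measured neuron markers, the knockdown raised 5 and lowered 1 with TGFb, and raised 4 and lowered 1 with vehicle. Elavl3 rose by 1.42 ± 0.06 (SE) with TGFb and 1.26 ± 0.06 with vehicle (limma, adjusted p = 8.29e-08 and 1.83e-07), and Rbfox3 fell by 1.28 ± 0.09 under each treatment (adjusted p = 2.55e-06 and 2.49e-06). The summed signal of the neuron markers, each relative to the 75th percentile, was 14.7 to 16.6 in knockdown cells with TGFb, against 13.2 to 13.9 in control cells with TGFb. With vehicle it was 15.9 to 17 in knockdown cells, against 14.2 to 16.1 in control cells. Of 10 oligodendrocyte lineage markers, TGFb lowered 2 in knockdown cells and 3 in control cells. Their sum was 37.6 to 41.2 in knockdown cells with TGFb, against 43.6 to 45.7 with vehicle, and 39.5 to 40.3 in control cells with TGFb, against 48.5 to 52.2 with vehicle. The knockdown lowered 1 of these 10 with TGFb, and lowered 3 and raised 1 with vehicle. Pdgfra, of oligodendrocyte precursors, fell in the knockdown by 1.79 ± 0.07 with TGFb and by 1.97 ± 0.07 with vehicle (adjusted p = 2.28e-08 and 1.85e-08).

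Of 5 measured fibroblast and pericyte markers, TGFb raised 2 in each line, Col1a1 and Acta2. Col1a1 rose by 1.27 ± 0.11 (SE) in knockdown and 1.11 ± 0.11 in control cells (limma, adjusted p = 1.79e-05 and 4.55e-05). The summed signal of the list was 0.636 to 0.695 in knockdown cells with TGFb, against 0.491 to 0.516 with vehicle, and 0.964 to 1.14 in control cells with TGFb, against 0.551 to 0.661 with vehicle. The microglia markers Aif1 and Tyrobp and the endothelial marker Cdh5 did not exceed background well on any of the 12 arrays. Of 5 measured microglia markers, P2ry12 rose with the knockdown by 0.98 ± 0.10 with TGFb and 1.05 ± 0.10 with vehicle (adjusted p = 2.56e-05 and 1.55e-05). The microglia markers summed to 3.38 to 3.96 in knockdown cells with TGFb, against 3.13 to 3.47 in control cells with TGFb, and to 3.52 to 3.8 on 2 knockdown arrays with vehicle, against 3.25 to 4.56 in control cells with vehicle. The 5 measured endothelial markers summed to 0.592 to 0.794 in knockdown cells with TGFb, against 0.534 to 0.713 in control cells with TGFb, and to 0.592 to 0.655 in knockdown cells with vehicle, against 0.557 to 0.712 in control cells with vehicle.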

How the data were processed

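Arrays from 12 samples were analysed (4 groups of 3). The deposited scanner tables hold spot intensity, which the authors had extracted with Agilent Feature Extraction 10.7.3.1 per the file headers, background-subtracted, with probe positions in build mm9. The authors' deposited log2 values were used only as an alternative. Their column medians lie near 7.93, all 12 columns matched their own array best, and how they were centred and normalized is not given in the labels or headers. Outlier-flagged and control spots were left out and spots of a probe averaged. Signals were divided by the array's 75th percentile (3175 to 4462) and taken as log2. Probes were named through RefSeq accessions where they matched (26055 of 39429) and by the file otherwise. limma 3.58.1 in R 4.3.3 fitted the 4 groups together (8 residual degrees of freedom), with Benjamini-Hochberg adjustment over 24146 genes. Replicates correlated at 0.994 to 0.998. The fit was tested on simulated data with independent noise on each array. That simulation held no shared slide deviation, so it does not cover the dependence within slides. Alternatives were normexp correction (offset 50), median or quantile scaling, no filter or a stricter one, the mean of a gene's probes or each probe, 2 groups alone, slide or replicate blocks, an adjusted p under 0.01 and each array left out. The number of arrays limits the precision. Named genes were Kdm6b, the 10 members with every probe, up to 5 genes with the largest change among those passing in each list, and genes a sentence on detection singles out. The members and lists were chosen with earlier results of these data known.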

Additional observations from a re-analysis of the deposited data

How the results depend on the processing

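Of 1240 values of the 10 genes under other settings, 1158 kept their side of the threshold, 67 lost a call and 15 gained 1, and no called value changed sign. Scaling to the array median left 0 of the 10 genes called for TGFb in knockdown cells and 4 for the knockdown with vehicle. Of the whole array it left 1386 genes for TGFb in knockdown cells, 1516 for TGFb in control cells, 4645 for the knockdown with TGFb, 3952 for the knockdown with vehicle and 5 for the difference of responses (1 higher and 4 lower, against 11 and 10, and 6 and 9 with the authors' values). An adjusted p under 0.01 left 1 of the 10 genes for TGFb in knockdown cells and 4 for the knockdown with vehicle, and, in the same order, 1391, 1571, 4569, 4361 and 4 genes of the array. The difference of responses held 45 genes with slide as a fixed block and 95 as a random block. Leaving out 1 array at a time gave 1 to 2 of the 10 genes and 1613 to 2422 genes of the array for TGFb in knockdown cells, and 4 to 27 genes of the array for the difference. For Steap4 with TGFb in knockdown cells the change was -1.59, and 0.049 under normexp correction (limma, adjusted p = 0.814); its probe did not exceed background well on any knockdown array. The cause of these shifts was not tested.

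Of 18 pairs with the same replicate number in different groups 6 deviated together (median correlation -0.103). Replicate number and slide are partly tied, and all 12 pairs on the same slide deviated together. This check therefore cannot tell whether the replicate numbers stand for paired cultures. With the replicate block the 10 genes gave 2, 3, 4 and 6 calls in that order, against 2, 3, 5 and 7 without it. The whole array gave 1871, 2060, 6150 and 5869 calls, against 2291, 2450, 6998 and 6721, and the difference of responses 11 genes of the array against 21.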
